A study of Mus musculus with 7 samples.

Results

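The genes described here encode the glycoproteins, proteoglycans, elastic fibre proteins and lysyl oxidases of the extracellular matrix, together with 5 surface proteins by which fibroblasts are recognised. They were chosen by name as a fixed list of 44 genes, of 55423 features in the count table. The rule uses no measured value, but the list was chosen with earlier results of these data known. All 44 had enough reads to be tested, among 24433 genes tested in all. Fibroblasts secrete most of the matrix of the skin. Fibronectin, the tenascins, periostin and the thrombospondins bind cells and growth factors to that matrix, small leucine-rich proteoglycans space the collagen fibrils, and fibrillins and fibulins scaffold elastin. Lysyl oxidases then cross-link collagen and elastin. In carcinomas the same proteins are made largely by the stroma around the tumour cells, and several of them are known targets of TGF-beta.

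The measurements came from whole mouse skin tumours, labelled as cutaneous squamous cell carcinoma, that grew after tamoxifen was applied to the skin. Ivl:BRAFV600E mice carry a tamoxifen-inducible Cre under the promoter of involucrin, a gene of differentiating keratinocytes, which switches on the BRAFV600E oncogene in those cells. Ivl:BRAFV600E-SOX2LSL mice have the same alleles and, at the Rosa26 locus, a SOX2 transgene linked to eGFP behind a stop cassette that the same Cre removes. The question was how expression of SOX2 alters the tumours that BRAFV600E forms. Per the labels all mice were induced at 7–10 weeks of age, and tumours were taken at the clinical endpoint. The mice were on a C57BL/6J background per the methods, or a mixed C57BL/6 background per the reporting summary. Tumours A, B and C were Ivl:BRAFV600E, from 2 females and 1 male, and tumours D, E and F were Ivl:BRAFV600E-SOX2LSL, from 2 males and 1 female. The mice of tumours A and B also carried a tdRFP reporter at Rosa26, and the mouse of tumour C did not. Each tumour came from a separate mouse. Every Ivl:BRAFV600E-SOX2LSL tumour was taken sooner after induction than every Ivl:BRAFV600E tumour, so time since induction and genotype cannot be told apart.

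The libraries held 23565432 to 31152826 counts, and 25078 to 27611 features were detected in each. Sox2, the label check, stood at 0.238–0.716 CPM (counts per 1000000 in the library, after TMM scaling of library size) in the Ivl:BRAFV600E tumours and at 155–182 CPM in the Ivl:BRAFV600E-SOX2LSL tumours. EGFP had no count in tumours A, B and C and 110–139 CPM in tumours D, E and F. In edgeR's quasi-likelihood test 954 of the 24433 genes passed at an adjusted p of 0.05 (Benjamini-Hochberg), 3.90% of those tested, of which 585 were higher and 369 lower in Ivl:BRAFV600E-SOX2LSL. The samples are bulk tissue, in which fewer cells of a type and less RNA per cell cannot be told apart. Tumours B and D stood apart in the genes described here. Tumour B was the lowest of the 6 tumours in 38 of the 44 genes, and tumour D was the highest in 30.

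Across the 44 genes, 38 had a fitted log2 fold change above 0 (Ivl:BRAFV600E-SOX2LSL over Ivl:BRAFV600E), a share of 86.4% beside 52.8% of all genes tested. Their median log2 fold change was 1.09, and that of all genes tested was 0.04. One gene passed the test, 1 of 44 higher beside 2.39% of all genes, which is no larger a share than the background. That gene was Tgfbi. None passed as lower, beside 1.51% of all genes, although 2 had an unadjusted p below 0.05 in that direction and DESeq2 called 1 lower. At an unadjusted p below 0.05 in edgeR, 18 genes were higher (40.9%, beside 14.5% of all genes) and 2 lower (4.55%, beside 11.2%). DESeq2 called 13 genes higher (29.5%, beside 8.59% of all genes) and 1 lower (2.27%, beside 6.36%). Without a filter on low counts edgeR called 5 higher (beside 3.25%) and 1 lower (beside 1.99%), with the filterByExpr filter 2 higher (beside 4.18%), and without tumour D 3 higher (beside 3.59%). In 17 genes all of tumours D, E and F lay above all of tumours A, B and C (38.6%, beside 18.2% of all genes), and in 1 gene, Dpp4, all lay below (2.27%, beside 16.0%).

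**Figure D1:**
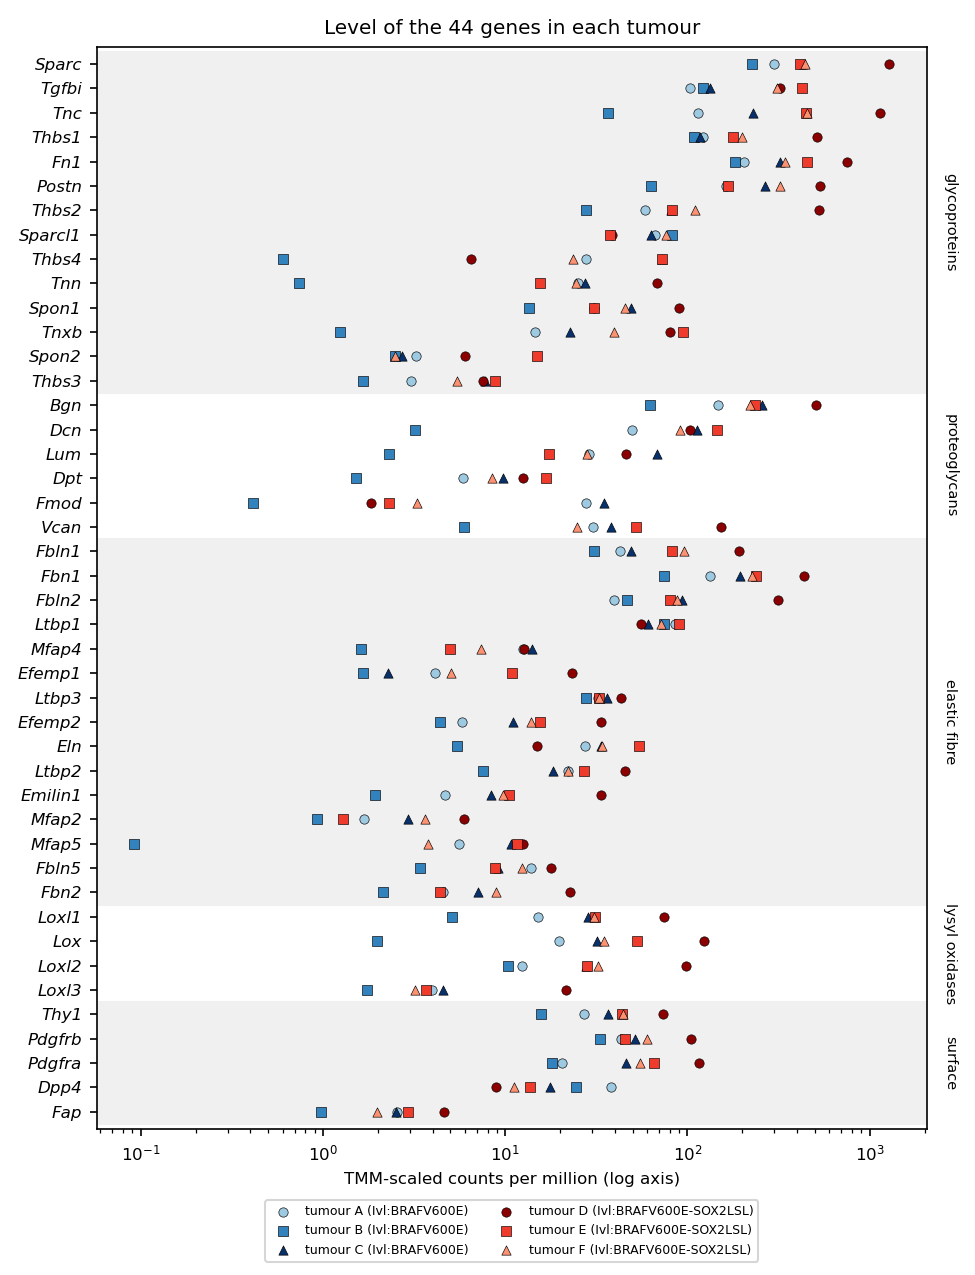
Level of each of the 44 genes in each of the 6 tumours, as TMM-scaled CPM on a log axis; genes are grouped by role and ordered within a role by their level per kilobase of exon. Blue symbols are Ivl:BRAFV600E tumours and red symbols Ivl:BRAFV600E-SOX2LSL tumours. Tumour B (blue square) is the lowest point in 38 genes and tumour D (dark red circle) the highest in 30.

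The summed level of the 44 genes was 2144, 1338 and 3139 CPM in tumours A, B and C and 8086, 3871 and 3679 CPM in tumours D, E and F. The groups did not overlap, but tumours C, E and F lay close together, and tumour D stood far above the rest. Per kilobase of exon, levels could be compared between genes. Sparc, which encodes a collagen-binding calcium-binding glycoprotein, ranked 1 and Tgfbi ranked 2 in either group. Tnc ranked 8 in Ivl:BRAFV600E and 3 in Ivl:BRAFV600E-SOX2LSL. The ranks that fell furthest were those of Fmod, from 19 to 43, and Dpp4, from 22 to 40.

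Among the 14 adhesive and matricellular glycoproteins, 1 rose, none fell, and the median log2 fold change was 1.15. At an unadjusted p below 0.05 8 were higher (beside 14.5% of all genes) and 0 lower, DESeq2 called 5 higher (beside 8.59%) and 0 lower, and in 6 the groups did not overlap (beside 18.2%). Tgfbi encodes a secreted adhesion protein that binds integrins and collagens and that TGF-beta induces. It lies on chromosome 13 (GRCm38, 56609523–56639562, plus strand). Its level was 103, 121 and 133 CPM in tumours A, B and C and 323, 428 and 309 CPM in tumours D, E and F. Unlike most of the other genes, it was not low in tumour B, and tumour D was not the highest. The group means were 119 ± 15.0 and 353 ± 64.8 CPM (SD, n = 3 tumours in each), a 2.97-fold difference (log2 1.57, SE 0.18, edgeR adjusted p = 0.0131). Tgfbi passed in 4 of the 6 fits that left out 1 tumour; it did not without tumour A (adjusted p = 0.0914) or without tumour B (adjusted p = 0.0641). In those fits its log2 fold change ranged from 1.41 to 1.66.

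Tnc encodes tenascin-C, a matrix protein of wounds and tumour stroma. It read 115, 36.7 and 228 CPM in tumours A, B and C, and 1141, 448 and 453 CPM in tumours D, E and F. Every Ivl:BRAFV600E-SOX2LSL tumour lay well above tumour C, and tumours E and F nearly coincided. The log2 fold change was 2.43 (SE 0.68) and missed the threshold in edgeR (adjusted p = 0.0886), with an adjusted p of 0.00152 in DESeq2. Tnxb, which encodes the tenascin that organises collagen in loose connective tissue, had the largest fitted value of the 44 genes, log2 2.47 (SE 0.85, adjusted p = 0.131). Tnxb stood at 14.6, 1.25 and 22.7 CPM against 80.3, 94.4 and 39.5 CPM, so that the groups did not overlap while tumour B lay far below the others. The third tenascin listed, Tnn, overlapped between groups.

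Thbs1 encodes thrombospondin-1, an inhibitor of vessel growth that also activates latent TGF-beta. In tumours A, B and C it varied little, at 122, 108 and 117 CPM, and in tumours D, E and F it stood at 512, 177 and 198 CPM. All Ivl:BRAFV600E-SOX2LSL tumours were above the range of the other group, tumour D most of all. The log2 fold change was 1.35 (SE 0.40, adjusted p = 0.0982 in edgeR and 0.012 in DESeq2). Fn1, which encodes fibronectin, had 205, 182 and 321 CPM against 754, 452 and 341 CPM, with tumours C and F nearly equal (log2 1.13, SE 0.34, adjusted p = 0.102). Thbs2 had non-overlapping groups as well, with 80.8 CPM in tumour C and 81.9 CPM in tumour E, whereas Thbs3 and Thbs4 overlapped. Thbs4 had the largest ratio of the highest to the lowest tumour within a group of all 44 genes, 121 in Ivl:BRAFV600E, where it ranged from 0.6005 to 72.8 CPM, and a fitted log2 fold change of 0.02.

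Sparc was the most abundant of the 44 genes per kilobase of exon. It read 299, 225 and 429 CPM in tumours A, B and C and 1279, 414 and 444 CPM in tumours D, E and F. Tumours C, E and F were alike, the groups overlapped, and the fitted log2 fold change of 1.16 (SE 0.48, adjusted p = 0.181) rested mainly on tumours B and D. Without these 2 it was 0.23. Its relative Sparcl1, an adhesion modulator also made by vessels, was the only gene of this role with a fitted value below 0 (log2 −0.48, SE 0.29, adjusted p = 0.341). Chosen after its values were seen, Sparcl1 stood at 66.3, 82.8 and 62.8 CPM against 38.4, 37.8 and 76.2 CPM, and its highest level of all was in tumour B.

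**Figure D2:**
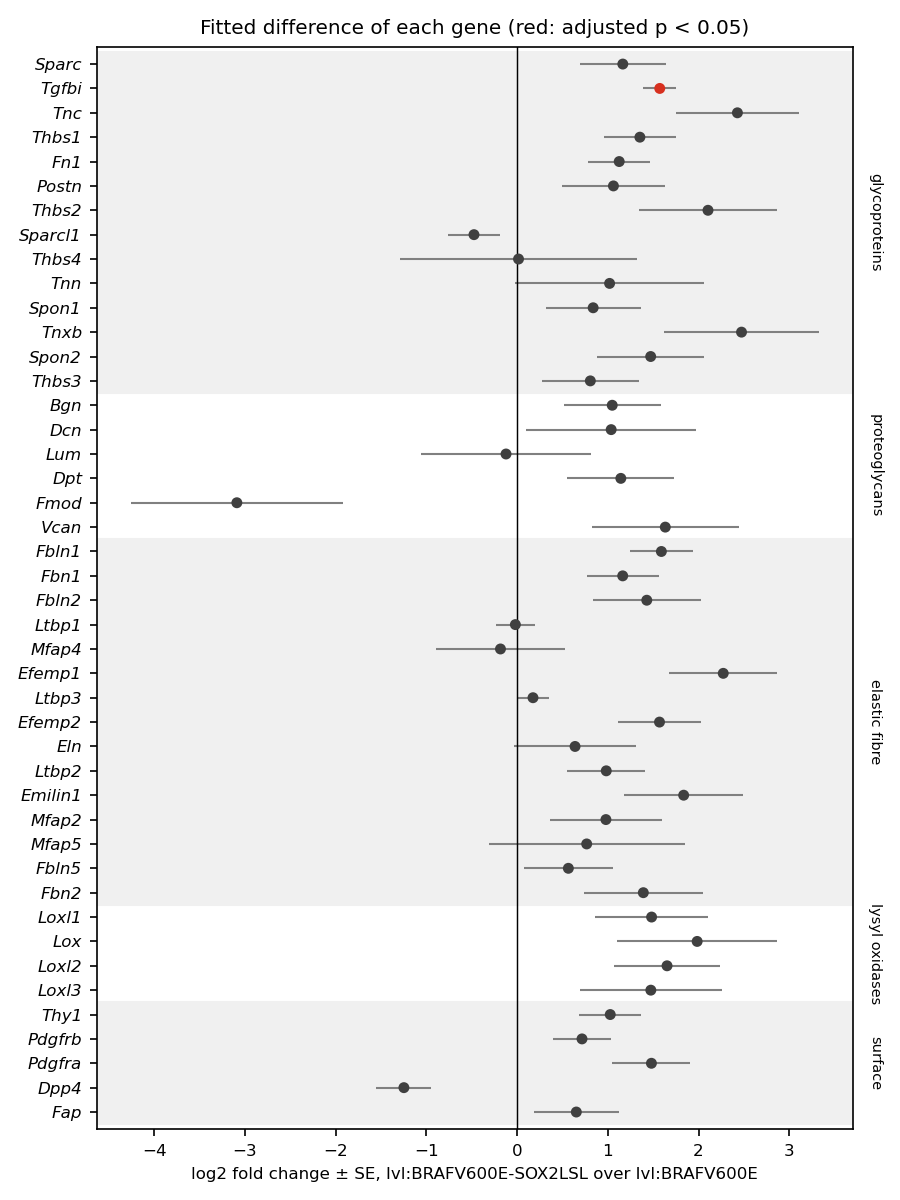
Fitted log2 fold change (Ivl:BRAFV600E-SOX2LSL over Ivl:BRAFV600E) of each of the 44 genes from edgeR, with bars of 1 standard error, 3 tumours in each group. Tgfbi, in red at 1.57, is the one gene with an adjusted p below 0.05; most points lie right of 0, and Fmod lies furthest left at −3.09.

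The 6 proteoglycans and the collagen-binding protein dermatopontin among them gave no call in either direction, and DESeq2 and limma voom gave none either. At an unadjusted p below 0.05, 0 were higher (beside 14.5% of all genes) and 1 lower (beside 11.2%). The median log2 fold change was 1.04. Bgn, which encodes biglycan, was the most abundant per kilobase. It stood at 148, 62.7 and 256 CPM in tumours A, B and C and at 509, 235 and 220 CPM in tumours D, E and F. Tumour C exceeded tumours E and F, and the groups overlapped (log2 1.05, SE 0.53, adjusted p = 0.26). Dcn, which encodes decorin, ranged from 3.19 to 113 CPM within Ivl:BRAFV600E and from 91.2 to 145 CPM within Ivl:BRAFV600E-SOX2LSL. Vcan, Dpt and Dcn had fitted values above 0 and overlapping groups, and Lum was at log2 −0.12 (SE 0.93).

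Fmod encodes fibromodulin, a proteoglycan that is abundant in tendon, and it was the gene with the most negative fitted value, log2 −3.09 (SE 1.17, adjusted p = 0.156). Its values, looked up for that reason, were 27.7, 0.416 and 35.1 CPM in tumours A, B and C and 1.85, 2.30 and 3.29 CPM in tumours D, E and F. Tumours A and C lay far above all others, and tumour B, with 9 counts, lay below every Ivl:BRAFV600E-SOX2LSL tumour. Without tumour B alone the log2 fold change was −3.66 and passed the test (edgeR adjusted p = 0.0215). Fmod was the 1 member called lower in that fit, beside 0.0703% of all genes. That fit leaves out the low value of the Ivl:BRAFV600E group, so the call is a description. The 10 genes of the tendon list, which holds Fmod and Thbs4 themselves, did not all share this pattern. Their summed level was 7.53 CPM in tumour B, 120 and 175 CPM in tumours A and C, and 38.2–159 CPM in tumours D, E and F. Like Fmod, the sum was lowest in tumour B, but in tumour E it was near that of tumour C while Fmod was low. The cartilage and tendon protein Comp was at 9.99, 0.0462 and 6.89 CPM against 0.364, 0.0972 and 0.542 CPM. The 1 call on the list in edgeR went the other way: Mkx, a transcription factor of tendon, rose from 0.409–0.808 CPM to 7.97–18.3 CPM (log2 4.52, SE 0.43, edgeR adjusted p = 0.00860). At an unadjusted p below 0.05 the list had 3 lower genes, Fmod, Comp and Kera, and DESeq2 called 1 higher and 2 lower. The part of tendon genes in the values of Fmod was not tested.

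Of the 15 elastic fibre and microfibril genes none passed in edgeR. At an unadjusted p below 0.05 6 were higher (beside 14.5% of all genes) and 0 lower (beside 11.2%), and DESeq2 called 5 higher (beside 8.59%). Their median log2 fold change was 0.98. Fbln1, which encodes fibulin-1, a protein of elastic fibres and basement membranes, came closest. It read 42.9, 30.8 and 49.2 CPM in tumours A, B and C and 192, 82.2 and 95.9 CPM in tumours D, E and F. Every Ivl:BRAFV600E-SOX2LSL tumour lay above tumour C by more than the range within Ivl:BRAFV600E. The log2 fold change was 1.59 (SE 0.35, adjusted p = 0.0538), and it passed in 5 of the 15 alternative fits, with adjusted p values from 0.000559 to 0.184.

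Efemp1 and Efemp2 encode fibulin-3 and fibulin-4, the second of which is needed to build elastic fibres. Efemp1 was a low gene, at 4.13, 1.66 and 2.28 CPM against 23.3, 10.9 and 5.02 CPM, so that tumours A and F nearly met (log2 2.27, SE 0.60, adjusted p = 0.0765). Efemp2 had 5.76, 4.39 and 11.1 CPM against 33.4, 15.6 and 13.9 CPM (log2 1.57, SE 0.46, adjusted p = 0.0961). Neither overlapped between groups, and in both tumour D was more than 2 times tumours E and F. Fbn1, which encodes fibrillin-1, the main microfibril protein, stood at 133, 74.4 and 195 CPM and at 438, 238 and 226 CPM (log2 1.16, SE 0.40, adjusted p = 0.128). Of its 12128 exon bases, 2442 also belong to a gene on the other strand, and whether the counting used strand is not given in the sources used here.

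Emilin1 and Ltbp2 also had non-overlapping groups, although Ltbp2 was at 22.1 CPM in both tumour A and tumour F. In 6 genes of this role the groups did not overlap (beside 18.2% of all genes), while the remaining 9 overlapped. Eln, which encodes elastin itself, ranged from 5.45 to 33.5 CPM in Ivl:BRAFV600E and from 15.0 to 54.3 CPM in Ivl:BRAFV600E-SOX2LSL, and there tumour D was the lowest. The latent TGF-beta binding proteins Ltbp1 and Ltbp3 varied little in either group, with ratios of the highest to the lowest tumour of 1.42 and 1.63 for Ltbp1 and of 1.31 and 1.33 for Ltbp3. Ltbp1 stood at 60.4–85.8 CPM against 55.5–90.4 CPM (log2 −0.02, SE 0.21), and Ltbp3 at 27.7–36.2 CPM against 32.5–43.4 CPM (log2 0.18, SE 0.17). Tumour B was the lowest tumour in Ltbp3 and the third highest in Ltbp1. Mfap5 had 2 counts in tumour B, under the 3 counts that a count of 0 would still allow, and 3.79–12.6 CPM in the other tumours.

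**Figure D3:**
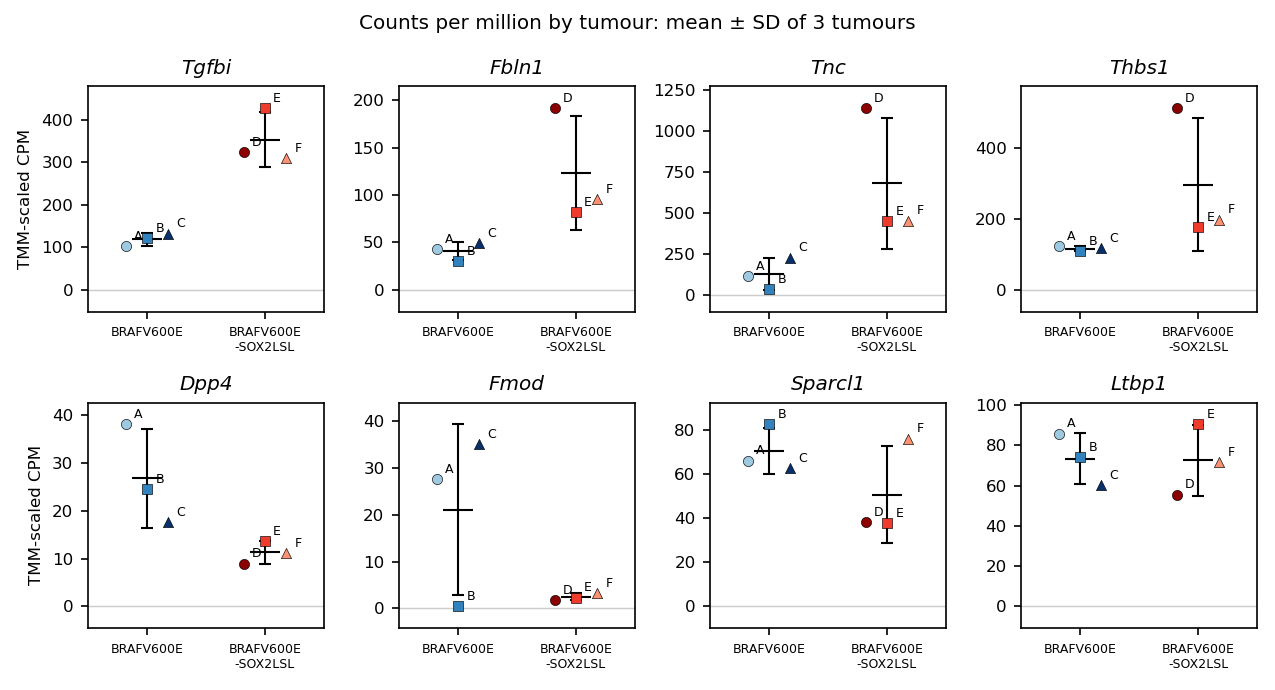
TMM-scaled CPM of 8 genes in each tumour (letters), with the mean and SD of the 3 tumours in each group; the horizontal grey line is 0. Tgfbi separates the groups with a small spread in each, Fbln1, Tnc and Thbs1 separate them with tumour D far above, Dpp4 is lower in tumours D, E and F, and Fmod, Sparcl1 and Ltbp1 overlap.

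All 4 lysyl oxidases had fitted values above 0, from log2 1.47 to 1.98, with a median of 1.57. None passed in edgeR. At an unadjusted p below 0.05 2 were higher (beside 14.5% of all genes) and 0 lower (beside 11.2%), and DESeq2 called 1 higher, Loxl2 (beside 8.59%). Loxl1, which acts on elastin, was the most abundant per kilobase over all 6 tumours, at 9.36 CPM per kilobase beside 9.24 for Lox, whereas in Ivl:BRAFV600E-SOX2LSL alone Lox was above it (14.8 beside 13.8). It read 15.1, 5.13 and 28.6 CPM in tumours A, B and C against 74.5, 30.97 and 30.9 CPM in tumours D, E and F. Tumours C, E and F were within 3 CPM of each other, and the log2 fold change was 1.48 (SE 0.62, adjusted p = 0.188). Lox and Loxl2 likewise did not overlap, although Loxl2 was at 27.8 CPM in tumour C and 28.0 CPM in tumour E. That made 3 of the 4 genes without overlap, beside 18.2% of all genes. In Loxl3 tumour D stood 5.92 times above the higher of tumours E and F while the groups overlapped.

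Of the 5 fibroblast surface genes none passed in edgeR. At an unadjusted p below 0.05 2 were higher (beside 14.5% of all genes) and 1 lower (beside 11.2%). DESeq2 called 2 higher (beside 8.59%) and 1 lower (beside 6.36%). Pdgfra, the receptor for PDGF that marks dermal fibroblasts, stood at 20.5, 18.1 and 46.3 CPM in tumours A, B and C and at 116, 65.4 and 55.1 CPM in tumours D, E and F. The groups did not overlap (log2 1.48, SE 0.43, adjusted p = 0.0956 in edgeR and 0.00987 in DESeq2). Thy1, a glycoprotein of fibroblasts, was the most abundant of the 5 per kilobase, with 27.1, 15.7 and 36.8 CPM against 73.9, 43.99 and 44.2 CPM (log2 1.03, SE 0.34, adjusted p = 0.122). Pdgfrb, which pericytes share, and Fap, the protease of activated fibroblasts, overlapped, with log2 fold changes of 0.72 (SE 0.32) and 0.65 (SE 0.47).

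Dpp4, a surface peptidase known from upper dermal and fascial fibroblasts and also made by other cells, was the exception. It stood at 38.0, 24.6 and 17.6 CPM in tumours A, B and C and at 8.95, 13.7 and 11.2 CPM in tumours D, E and F. The groups did not overlap, with every Ivl:BRAFV600E-SOX2LSL tumour below tumour C. The log2 fold change was −1.25 (SE 0.30), with an adjusted p of 0.0657 in edgeR and 0.0032 in DESeq2. The range of adjusted p over the alternatives was 0.0032 to 0.189. Tumour B was not low in Dpp4, and tumour D was the lowest, the reverse of most of the 44 genes.

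**Figure D4:**
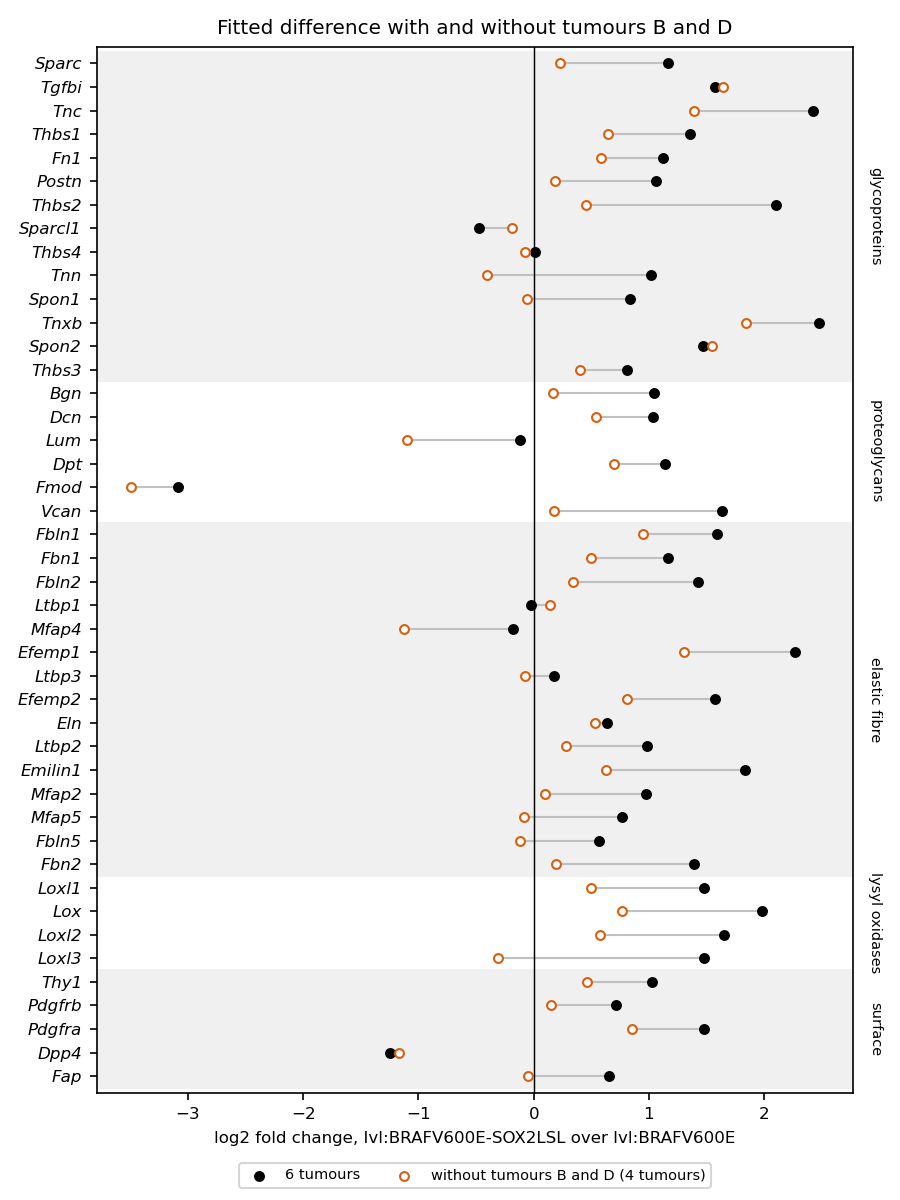
Fitted log2 fold change of each gene over all 6 tumours (black) and over tumours A, C, E and F (open orange circles), joined by a line. The median falls from 1.09 to 0.31, while Tgfbi stays at 1.57 and 1.64 and Dpp4 and Fmod stay below 0.

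The spread among tumours of 1 genotype was wide and followed the same tumours in most genes. In 24 of the 44 genes tumour B had less than 0.5 times the lower of tumours A and C, and in 7 less than 0.1 times. In 17 genes tumour D had more than 2 times the higher of tumours E and F. The ratio of the highest to the lowest tumour had a median of 3.06 within Ivl:BRAFV600E and 2.48 within Ivl:BRAFV600E-SOX2LSL. Without tumours B and D, an alternative chosen after these values were seen, 31 genes had a fitted value above 0 (70.5%, beside 50.9% of all genes), and the median log2 fold change was 0.31, beside 0.01 for all genes. In that fit 5 genes passed as higher (beside 3.40% of all genes), Tgfbi, Tnc, Tnxb, Thbs1 and Fbln1, and 2 as lower (beside 2.79%), Fmod and Mfap4; since both tumours were set aside for their levels in these genes, the calls are a description. Leaving out tumour B alone gave a median of 0.73, and leaving out tumour D alone 0.63. The sizes in Tgfbi (log2 1.64), Tnxb (1.84), Tnc (1.39) and Efemp1 (1.30) stayed above 1 without both. So did that of Spon2 (1.55), but its groups overlapped, at 3.24, 2.49 and 2.71 CPM against 6.02, 15.0 and 2.49 CPM, with tumour F the lowest of the 6, and leaving out 1 tumour at a time took its log2 fold change down to 0.60.

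The fibrillar collagens, the other main product of fibroblasts, varied with them. The summed level of Col1a1, Col1a2 and Col3a1 was 1975, 703 and 4801 CPM in tumours A, B and C and 7912, 3663 and 4527 CPM in tumours D, E and F, so it was lowest in tumour B and highest in tumour D, with tumours C, E and F between. When each gene was divided by that sum within the tumour, the groups overlapped in 41 of the 44 genes. The ratio was higher in all Ivl:BRAFV600E-SOX2LSL tumours in 2 genes, beside 2.28% of all genes, and lower in 1, beside 15.8%. Tnc was at 5.81%, 5.22% and 4.75% of the collagen sum in tumours A, B and C, and at 14.4%, 12.2% and 10.00% in tumours D, E and F. The ratio of Tnc thus varied less within each group than its level did. Tnxb was at 0.741%, 0.177% and 0.472% against 1.01%, 2.58% and 0.873%. The gene with the lower ratio was Mfap4, at 0.635%, 0.230% and 0.294% against 0.159%, 0.135% and 0.162%. For Tgfbi the ratio overlapped, at 5.21%, 17.2% and 2.76% against 4.09%, 11.7% and 6.83%.

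Other genes of the same pathways were listed by name, and the number called differed between tools. The counts for the lists below stand beside these shares of all genes. At an unadjusted p below 0.05 14.5% were higher and 11.2% lower, and edgeR called 2.39% higher and 1.51% lower. DESeq2 called 8.59% higher and 6.36% lower, and the groups did not overlap in 18.2% (higher) and 16.0% (lower). Of 19 genes for fibrillar and beaded collagens and their processing, 1 rose in edgeR and none fell, and the median log2 fold change was 1.14. At an unadjusted p below 0.05 13 of them were higher, DESeq2 called 8 higher and limma voom 1, and in 10 the groups did not overlap. The gene was Pcolce2, which enhances cleavage of the procollagen tail (log2 1.78, SE 0.30, adjusted p = 0.0307). Of 14 TGF-beta ligands, receptors and targets 1 rose in edgeR and none fell, with a median of 0.80. There 8 were higher at an unadjusted p below 0.05, DESeq2 called 6 higher, and limma voom called 0. It was the feedback inhibitor Smad7 (log2 0.86, SE 0.18, adjusted p = 0.0467), and the receptor gene Tgfbr2 was at log2 1.13 (SE 0.24, adjusted p = 0.0522). Of the 4 PDGF ligands, which act on the receptors encoded by Pdgfra and Pdgfrb, 1 rose, Pdgfc (log2 1.52, SE 0.29, adjusted p = 0.0416), and Pdgfa was at log2 1.51 (SE 0.36, adjusted p = 0.0649). DESeq2 called 2 of the 4 higher and limma voom 1. Of 16 other proteoglycan and glycosaminoglycan genes none passed in edgeR (3 higher and 2 lower at an unadjusted p below 0.05, and 2 higher and 2 lower in DESeq2), with a median of 0.60. A further list of fibroblast genes, 15 tested, shares Mfap4 with the 44 and Col1a1, Col1a2 and Col3a1 with the collagen list. On it 1 rose, Pdpn, which encodes podoplanin and is also made by basal keratinocytes (log2 2.00, SE 0.38, adjusted p = 0.0391), and their median was 1.13. On that list 6 were higher at an unadjusted p below 0.05, DESeq2 called 5 higher and limma voom 1.

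Markers of several other cell types moved with the genotype or with tumour D. The 18 skeletal muscle genes summed to 9.24–24.4 CPM in tumours A, B and C and to 891–3789 CPM in tumours D, E and F, and 15 of the 18 rose in edgeR (17 in DESeq2 and 4 in limma voom), for example the muscle actin Acta1, at 0.136–0.570 CPM against 55.0–340.2 CPM. The 10 macrophage and myeloid genes summed to 84.8–184 CPM against 223–708 CPM, and 2 rose in edgeR, Csf1r and Ptprc. In 8 of these 10 the groups did not overlap, 9 were higher at an unadjusted p below 0.05, DESeq2 called 8 higher and limma voom 0. The 13 keratinocyte genes summed to 90148–134264 CPM against 20792–55694 CPM, mainly through Krt1 and Krt10 of differentiating cells, and the 1 call among them in edgeR was higher, Epcam. At an unadjusted p below 0.05 7 keratinocyte genes were higher and 3 lower, and DESeq2 called 5 higher and 2 lower. The 10 endothelial genes did not separate the groups, at 212–241 CPM against 222–266 CPM, and none was called in edgeR (1 higher and 1 lower at an unadjusted p below 0.05, and 1 lower in DESeq2). The 6 pericyte genes, cells that share Pdgfrb, summed to 439–505 CPM (504.5 in tumour A) against 339–450 CPM (449.9 in tumour F). None was called in edgeR, 0 were higher and 2 lower at an unadjusted p below 0.05, DESeq2 called 1 lower, and in 3 of the 6 all of tumours D, E and F lay below the others. The 8 myofibroblast and smooth muscle genes summed to 102–154 CPM against 353, 269.98 and 149 CPM in tumours D, E and F. Of them 1 rose in edgeR, Des, the desmin of all muscle (log2 5.43, SE 0.69, adjusted p = 0.018). Smtn went the other way without overlap, at 58.1–62.3 CPM against 35.4–46.4 CPM (log2 −0.58, SE 0.13, edgeR adjusted p = 0.0592). At an unadjusted p below 0.05 1 gene was higher and 1 lower, and DESeq2 called 1 higher and 1 lower. Acta2, the actin of myofibroblasts, overlapped between groups, at 169 CPM in tumour D and 23.3–56.9 CPM elsewhere. The 7 adipocyte genes summed to 93.6 CPM in tumour D and 21.3–53.5 CPM in the other tumours, and none was called in edgeR, DESeq2 or limma voom (2 higher and 0 lower at an unadjusted p below 0.05). No marker list had a gene at 0 counts in all 6 tumours, and the part of these cell types in the values of the 44 genes was not tested.

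**Figure D5:**
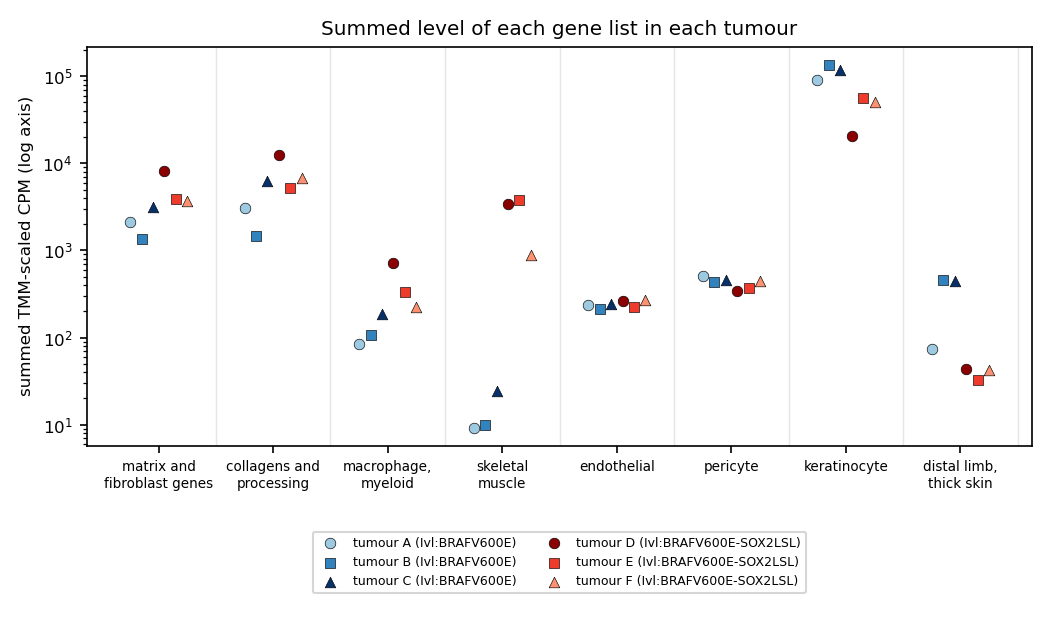
Summed TMM-scaled CPM of 8 gene lists in each tumour, on a log axis; blue symbols are Ivl:BRAFV600E and red symbols Ivl:BRAFV600E-SOX2LSL tumours. The 44 genes and the collagens are lowest in tumour B and highest in tumour D, skeletal muscle genes are at 9.24–24.4 CPM against 891–3789 CPM, and endothelial genes lie at 212–266 CPM in all 6.

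Several of the listed genes of distal limb and thick skin also separated the groups, although the labels give 1 tissue for all tumours. Of 9 such genes 4 fell in edgeR, Hoxc10, Hoxc11, Hoxa13 and Krt9, while DESeq2 called 5 lower and limma voom 3. At an unadjusted p below 0.05 7 were lower and 1 higher. The higher one was Pitx1, without overlap at 25.6–31.4 CPM against 32.4–43.7 CPM (log2 0.44, SE 0.16, edgeR adjusted p = 0.145). Tbx4 overlapped (log2 0.01, SE 0.63). Hoxc10, a homeobox gene of the hind body, was at 10.1–13.9 CPM in tumours A, B and C and at 0–0.0280 CPM in tumours D, E and F, and Krt9, the keratin of palm and sole epidermis, at 13.6, 390 and 378 CPM against 0.0280, 0.0972 and 0.0361 CPM. Fibroblast genes are known to differ between body sites, and the part of site in the values of the 44 genes was not tested.

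The stretches before the start sites of 4 of these genes are printed to show the sequence at genes of each pattern. RefSeq windows (GRCm38.p6) were at hand for 26 of the 44 genes, 34 windows in all, and each was searched over the 250 bases before the start site, on both strands, for 3 motifs: TGANTCA, which AP-1 factors bind, CATTGT, the core that SOX factors bind, and TATAAA, the TATA box. The first was in 2 of the 26 genes, Efemp1 and Tnxb (5.88% of their windows, beside 6.75% of all 32851 windows). The SOX core was in 2, Dpp4 and Ltbp1 (5.88%, beside 10.7%). TATAAA was in 4, Dpp4, Postn, Thbs2 and Tnc (14.7%, beside 12.4%). Those shares are near the background. Capitals mark the matches, each stretch runs 5′ to 3′ on the strand of the gene, and that of Tgfbi stops where the annotated gene begins.
Tgfbi, the gene that rose, chr13:56609336-56609522, plus strand, no match: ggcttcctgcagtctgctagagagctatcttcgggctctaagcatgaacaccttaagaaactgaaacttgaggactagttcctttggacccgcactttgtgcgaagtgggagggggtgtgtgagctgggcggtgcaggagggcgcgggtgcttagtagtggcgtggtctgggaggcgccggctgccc
Tnc, higher against the collagens as well, chr4:64047016-64047265, minus strand, TATAAA beginning 126 bases before the start site: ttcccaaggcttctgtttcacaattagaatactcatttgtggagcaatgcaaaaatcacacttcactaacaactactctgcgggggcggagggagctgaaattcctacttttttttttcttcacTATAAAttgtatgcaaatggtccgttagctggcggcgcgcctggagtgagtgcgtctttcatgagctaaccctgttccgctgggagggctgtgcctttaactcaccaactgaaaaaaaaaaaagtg
Efemp1, in which tumour D was highest, chr11:28852955-28853203, plus strand, TGANTCA beginning 154 bases before the start site: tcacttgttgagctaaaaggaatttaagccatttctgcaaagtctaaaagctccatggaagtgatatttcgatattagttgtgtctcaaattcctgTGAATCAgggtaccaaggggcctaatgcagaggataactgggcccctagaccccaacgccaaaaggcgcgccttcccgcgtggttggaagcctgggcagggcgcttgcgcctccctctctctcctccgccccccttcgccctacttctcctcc
Dpp4, lower in tumours D, E and F, chr2:62412232-62412481, minus strand, TATAAA beginning 227 bases and ACAATG, the reverse complement of the SOX core, 200.0 bases before the start site: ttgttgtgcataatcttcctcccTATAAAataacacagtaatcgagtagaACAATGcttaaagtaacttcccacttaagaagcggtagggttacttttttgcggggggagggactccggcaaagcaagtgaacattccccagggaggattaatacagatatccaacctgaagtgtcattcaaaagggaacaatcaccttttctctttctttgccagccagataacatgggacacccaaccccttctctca
A match is a run of letters in the window and does not show that a factor binds there.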

How the data were processed

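Total RNA of whole tumours was depleted of ribosomal RNA and sequenced. According to the labels and the study's methods, the authors trimmed reads with Trim Galore, checked them with FastQC 0.11.8, aligned them to GRCm38 with HISAT2 2.1.0 and deposited raw counts per gene from featureCounts (Subread 1.6.3); the use of strand and of multimapping reads is not given in the sources used here. Labels list 4 Ivl:BRAFV600E and 3 Ivl:BRAFV600E-SOX2LSL samples, whereas the prefixes of the column names give 3 and 4, so names and labels disagree on 1 sample. The 6 columns used were assigned by mouse name, through the mouse lists of the study, and 1 column that could not be assigned, with the prefix of the Ivl:BRAFV600E-SOX2LSL columns, was not used. The 44 genes, the other gene lists and the tests were chosen with earlier results of these data known. The test took genes that reached 5 reads in 1 or more tumours, by edgeR 4.0.16 (R 4.3.3) quasi-likelihood with TMM scaling over the 6 tumours, with Benjamini-Hochberg adjustment at 0.05. Standard errors are the log2 fold change divided by the square root of F. The script was tested on simulated data. The smallest p of an exact permutation test with 3 tumours against 3 is 0.1, so none was run. Alternatives were DESeq2 1.42.0, limma 3.58.1 voom, 3 other scalings, other filters, sex as a covariate and each tumour left out. Levels per kilobase used GENCODE exon lengths on GRCm38. Any of the 44 genes may be named. Values by tumour are given for those that passed, those with the smallest p up to 12 genes, and the most abundant of each role. Those of Sparcl1, Fmod and Spon2 are given outside this rule. Of the other lists, at most 4 genes with the smallest p are named, with Acta1, Hoxc10 and Krt9 among them. Krt1 and Krt10 were added after their values were seen, and Acta2, Pitx1 and Tbx4 are named outside that rule.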

Additional observations from a re-analysis of the deposited data

How the results depend on the processing

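No paired analysis was possible because the columns carry no replicate number. Of 660 values (44 genes under 15 alternatives), 606 kept their direction and their side of the threshold, 28 passed only under the alternative, 2 no longer passed, and 24, in 11 genes, changed sign. The number of all genes called was 954 and came to 3653 in DESeq2, 1759 with no filter, 228 with sex as a covariate and 1436 without tumours B and D, the one alternative chosen after seeing the data. Leaving out 1 tumour at a time gave 22 (without tumour A) to 1575 (without tumour D) genes called, 0 (without tumour A or B) to 3 (Tgfbi, Thbs1 and Fbln1, without tumour D) of the 44 called higher, 0 to 1 (Fmod, without tumour B) called lower, and a median of 0.63 to 1.57. Of the 44 genes, DESeq2 called 13 higher and 1 lower, beside 8.59% and 6.36% of all genes. Without a filter 5 were called higher (beside 3.25%) and 1 lower (beside 1.99%), with filterByExpr 2 higher (beside 4.18%), and without tumours B and D 5 higher (beside 3.40%) and 2 lower (beside 2.79%). The log2 fold changes that changed sign were near 0 in most cases: Thbs4 to −0.070 under upper-quartile scaling, −0.093 with sex as a covariate and −0.073 without tumours B and D, with −1.18 to 1.25 when 1 tumour was left out; Lum to 0.74 in limma voom, with −0.67 to 0.97; Mfap4 to 0.19 in limma voom, with −0.68 to 0.22; and Ltbp1 to 0.056 with sex as a covariate and 0.14 without tumours B and D, with −0.21 to 0.14. Without tumours B and D, Tnn came to −0.40, Spon1 to −0.057, Fbln5 to −0.12, Mfap5 to −0.085, Ltbp3 to −0.075, Loxl3 to −0.31 and Fap to −0.053. The cause was not tested.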
